A study of Homo sapiens with 4 samples.

Results

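A set of 10 actin cytoskeleton genes was followed across the FLO-1 lines, namely the tropomyosins *TPM1*, *TPM2*, *TPM3* and *TPM4*, the nonmuscle myosin II heavy chains *MYH9* and *MYH10*, the myosin light chains *MYL9* and *MYL12A*, the class I myosin *MYO1C* and the crosslinker *ACTN4*. Each was found by its Ensembl identifier, and all 10 members were among the 63677 genes of the count files and the 17143 genes tested. The genes were chosen by function, but with values of this comparison in view, since the fold changes of *TPM4* and *MYH9* in the same 4 libraries were already known. Their fold changes are therefore given as a description, and an adjusted p-value beside one of them is its place in the fit across all genes, not independent support for the choice.

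FLO-1, the parental line, is an established cell line of human adenocarcinoma of the esophagus. FLO-1LM is its subline, recovered from a liver metastasis after liver metastases had been passed through several generations of NSG mice, which lack T, B and natural killer cells. Neither line received a drug, RNA was taken from subconfluent cultures a day after fresh medium, and FLO-1LM is a single subline for which the sources used here do not name a clone. The comparison rests on 4 RNAseq libraries, 2 per line, and neither the labels nor the methods say that those of a line came from separate cultures, so that p-values may measure technical spread only.

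Tropomyosins are coiled-coil dimers that lie end to end along actin filaments and decide which myosins and severing proteins can reach them. Nonmuscle myosin II is a hexamer of paired heavy chains, regulatory light chains and essential light chains, and it contracts actin bundles when the regulatory light chain is phosphorylated. Class I myosins are single-headed motors that tie membranes to actin, and the alpha-actinins crosslink filaments into bundles. In epithelial cells these proteins build the actin belt behind cell junctions, the stress fibers and the cell cortex.

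Total counts per library ran from 19060310 to 25920336, and the 10 members together took 0.598% to 0.645% of them. Levels are given as CPM, read counts divided by the TMM-scaled library size. The standard errors of the members' log2 fold changes ran from 0.064 to 0.080 at this depth. The FLO-1LM libraries stood further apart than the parental ones, with a chi-square over tested genes of 9.51 times its degrees of freedom against 4.54 times, and pairs from different lines gave 11.2 to 14.1. Of the markers of an epithelial line, *KRT8*, *KRT18* and *KRT19* were present in all 4 libraries and fell in FLO-1LM, with log2 fold changes of −0.70, −0.66 and −1.31, while *EPCAM* had 3 to 12 counts per library. Summed CPM of the marker lists for other cells were 43.8 to 55.4 in parental and 46.0 to 48.1 in FLO-1LM libraries for smooth muscle, 40.3 to 42.7 and 37.9 to 38.5 for striated muscle, 10.95 to 13.8 and 12.5 to 14.4 for fibroblasts, and 16.4 to 18.1 and 13.5 to 14.8 for hepatocytes. They were at most 0.539 CPM for endothelial cells and leukocytes. *MYH7*, *ACTG2*, *COL3A1*, *DCN*, *KDR*, *PTPRC* and *ALB* had no count in any library. Of the genes on these lists, only *TTN* of the striated muscle list was called, and it was lower in FLO-1LM. Of the genes matched, 1 of 6 smooth muscle, 7 of 13 striated muscle, 2 of 7 fibroblast, 1 of 4 endothelial, 2 of 5 leukocyte and 2 of 5 hepatocyte markers were at 0 in all libraries. The part of the keratin difference or of these markers in the members' values was not tested.

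In all, 3 members were higher in FLO-1LM than in parental cells and none was lower, at an adjusted p below 0.05 in edgeR's quasi-likelihood test. The called members were *TPM1*, *TPM4* and *MYO1C*, with folds of 1.24, 1.26 and 1.22. Over all tested genes 0.402% were called higher, 1.83% lower and 2.23% in either direction, and since the members were chosen with these calls known nothing is read from the difference. The fold change was above 0 for 7 members and below 0 for 3, where 50.4% of all tested genes lay above 0, with a median of 0.15 on the log2 scale against 0.0016 over all tested genes. The libraries of the lines did not overlap for 8 members, 6 higher and 2 lower in FLO-1LM, where 42.6% of all tested genes did not overlap. With 2 libraries against 2, the smallest p of an exact permutation test is 0.33, and the call of each gene leans on the spread shared across genes.

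**Figure D1:**
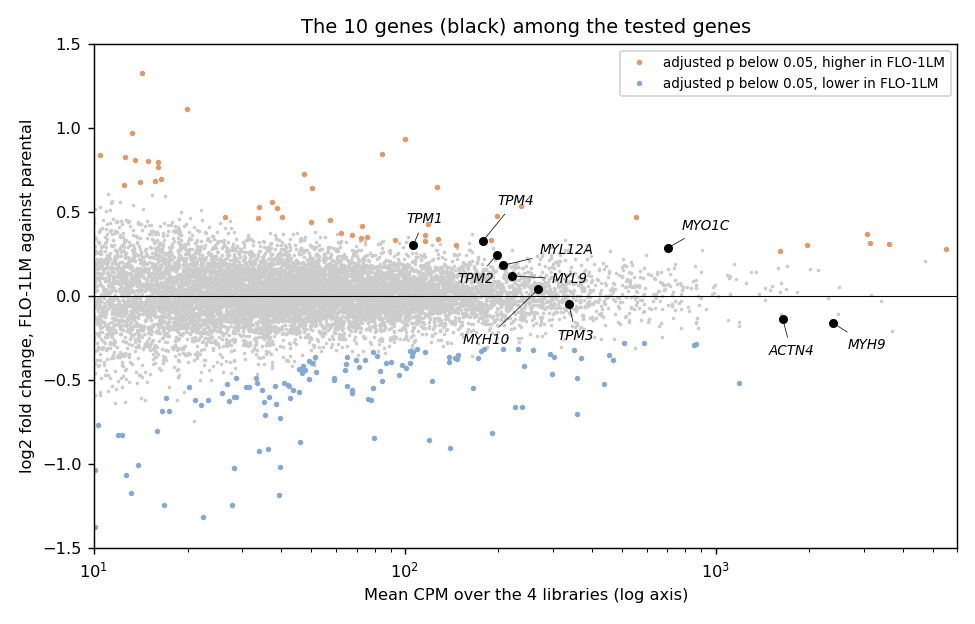
Log2 fold change of FLO-1LM against parental cells plotted against the mean CPM over the 4 libraries (log axis), with each tested gene as a point, called genes in orange (higher) and blue (lower), and the 10 members in black. The axes are limited to mean CPM of 10 and above and to changes within 1.5, and *TPM1*, *TPM4* and *MYO1C* sit at the upper edge of the cloud while *MYH9* and *ACTN4* lie to its right just below 0.

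**Figure D2:**
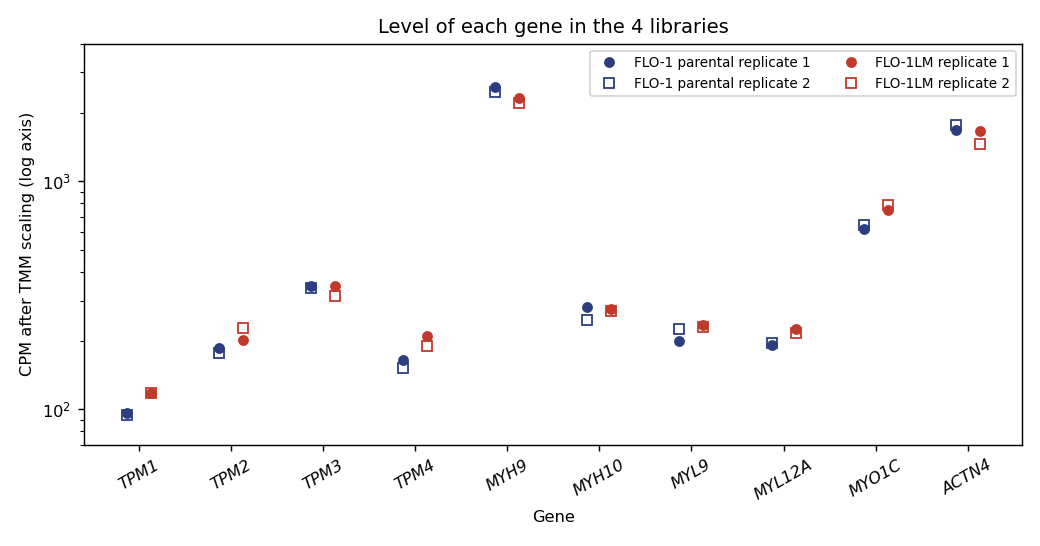
CPM after TMM scaling (log axis) of each member in the 2 parental (blue) and 2 FLO-1LM (red) libraries, circles for replicate 1 and squares for replicate 2. The gaps between lines are small on this scale, and for *TPM3* and *MYH10* the lines overlap.

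Of the 4 tropomyosins, *TPM1* and *TPM4* rose in FLO-1LM, *TPM2* was higher without passing the threshold, and *TPM3* stayed within the spread between libraries. *TPM4* (ENSG00000167460), which encodes a low molecular weight tropomyosin of nonmuscle cells, lies on chromosome 19 from 16177831 to 16213812 (GRCh37, as for all gene positions here). In CPM, its level was 209 and 189 in the FLO-1LM libraries and 165 and 152 in the parental libraries. Both FLO-1LM values lay above both parental ones. On the log2 scale the difference was 0.33 ± 0.080 (standard error), with an adjusted p of 0.034 from edgeR.

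*TPM1* (ENSG00000140416), whose splice forms include muscle and stress fiber tropomyosins, lies on chromosome 15 from 63334819 to 63364114. Its levels were nearly identical within a line, at 118.1 and 117.7 CPM in FLO-1LM and 96.3 and 94.5 CPM in parental cells. On the log2 scale the difference was 0.31 ± 0.079 (standard error), and the adjusted p of 0.049 from edgeR lay just inside the threshold. *TPM2* (ENSG00000198467), known as beta-tropomyosin, lies on chromosome 9 from 35681989 to 35690053 and had 202 and 228 CPM in FLO-1LM and 185 and 177 CPM in parental cells. The lines did not overlap for it, but the FLO-1LM libraries lay further apart than their distance from the parental ones, and its log2 fold change of 0.25 (standard error 0.079) had an adjusted p of 0.14 from edgeR.

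*TPM3* (ENSG00000143549), a tropomyosin of the general cytoskeleton and of slow muscle, lies on chromosome 1 from 154127784 to 154167124. It had 349 and 315 CPM in FLO-1LM and 346 and 339 CPM in parental cells, and the lines overlapped. The log2 fold change was −0.05, with a 95% interval from −0.20 to 0.11, which does not reach the values of *TPM1* and *TPM4*. The count of *TPM3* shared a library with those of the other 3 genes, so ratios between them do not depend on how libraries are scaled. For every 100 counts of *TPM3*, *TPM4* had 59.9 and 60.02 in FLO-1LM and 47.6 and 44.8 in parental cells. *TPM1* had 33.9 and 37.4 against 27.8 and 27.9, and *TPM2* had 57.9 and 72.5 against 53.6 and 52.3. All 3 ratios were higher in both FLO-1LM libraries than in both parental ones.

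Which tropomyosin was the most abundant depended on the length used to scale the counts, since these genes have many splice forms that counts per gene do not separate. Per base of annotated exon, *TPM2* held 59.4% ± 3.5 of the tropomyosin level in FLO-1LM and 57.6% ± 0.12 in parental cells (SD, n = 2 each). Per base of coding sequence *TPM3* led instead, with 39.0% ± 1.9 and 44.7% ± 0.57. The share of *TPM3* was lower in FLO-1LM with either length, and with the length of the canonical transcript (11.6% ± 1.02 against 14.1% ± 0.22). That direction restates the 3 ratios to *TPM3* above, which fix it for any lengths, so the lengths are no separate check of it.

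The promoters of the 3 called genes are shown because these genes moved the same way and because several tropomyosin genes are textbook targets of SRF, the serum response factor, which binds a sequence known as the CArG box. The sequences are from RefSeq (GRCh38.p14, so their positions do not match the GRCh37 positions above). Each is read in the direction of the gene from 250 bases before to 50 bases after an annotated start. A single window per gene was searched, and other starts of the same gene were not. Capitals mark a CArG box or a GC box (GGGCGG or CCGCCC), both searched on both strands.
TPM4 (chr19:16067288-16067587, plus strand): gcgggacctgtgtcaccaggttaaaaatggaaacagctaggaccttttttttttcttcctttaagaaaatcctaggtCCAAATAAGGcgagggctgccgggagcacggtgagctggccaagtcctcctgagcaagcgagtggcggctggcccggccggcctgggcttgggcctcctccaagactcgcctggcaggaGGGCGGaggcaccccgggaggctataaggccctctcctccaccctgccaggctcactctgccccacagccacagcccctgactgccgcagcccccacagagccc
TPM1 (chr15:63048239-63048538, plus strand): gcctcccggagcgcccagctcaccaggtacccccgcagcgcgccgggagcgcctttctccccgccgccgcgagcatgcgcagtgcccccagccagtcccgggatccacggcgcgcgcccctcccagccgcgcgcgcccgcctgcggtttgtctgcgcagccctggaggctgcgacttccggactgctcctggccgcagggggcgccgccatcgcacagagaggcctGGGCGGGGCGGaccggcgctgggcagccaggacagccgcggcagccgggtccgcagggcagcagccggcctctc
MYO1C (chr17:1492637-1492936, minus strand): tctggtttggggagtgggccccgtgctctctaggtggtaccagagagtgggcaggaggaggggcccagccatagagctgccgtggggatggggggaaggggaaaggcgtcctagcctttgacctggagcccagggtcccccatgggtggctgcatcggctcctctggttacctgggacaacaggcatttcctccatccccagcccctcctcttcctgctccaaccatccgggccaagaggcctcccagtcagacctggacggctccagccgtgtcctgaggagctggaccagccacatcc
A CArG box was found in the window of *TPM4*, where it begins 173 bases before the start used. It was in none of the windows of the other 8 members in the table. Which *TPM4* transcripts, long or short, begin at that start was not examined. The *TPM1* window had overlapping GC boxes and no CArG box, and the *MYO1C* window had neither. Allowing for the shift between builds, the *TPM1* window lies inside the gene, so the start at the gene's upstream end was not searched. Of all 35116 promoters of this length, 1.29% held a CArG box and 45% a GC box. On the list of SRF targets, 7 of 19 promoters held a CArG box, that of *TPM4* among them. The list is of known targets of the factor that binds this box, so its share is not separate evidence. A match is a run of letters and was not tested as a binding site. No promoter of *MYL9* was in the table.

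Of the nonmuscle myosin II heavy chains, *MYH9* had lower and *MYH10* nearly equal levels in FLO-1LM, and neither passed the threshold. *MYH9* (ENSG00000100345), the heavy chain of myosin IIA, lies on chromosome 22 from 36677326 to 36784055 and was the member with the most counts. It had 2315 and 2206 CPM in FLO-1LM and 2601 and 2458 CPM in parental cells. The lines did not overlap, and the log2 fold change was −0.16 (standard error 0.064, 95% interval from −0.30 to −0.03), with an adjusted p of 0.28 from edgeR. *MYH10* (ENSG00000133026), the heavy chain of myosin IIB, lies on chromosome 17 from 8377525 to 8534694. Its 275 and 269 CPM in FLO-1LM fell between the 282 and 247 CPM of the parental libraries. The log2 fold change was 0.04, with a 95% interval from −0.12 to 0.20. The third heavy chain gene, *MYH14*, had a log2 fold change of −0.09 (adjusted p = 0.79 from edgeR). Per base of exon, *MYH9* made up 90.0% ± 0.36 of the heavy chain level in FLO-1LM and 90.9% ± 0.32 in parental cells, and it also led in both lines with the other lengths. For every 100 counts of *MYH9* there were 11.9 and 12.2 of *MYH10* in FLO-1LM and 10.8 and 10.1 in parental cells.

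All 5 myosin II light chain genes had fold changes above 0, and none passed the adjusted threshold in edgeR, limma voom or DESeq2, with 4 of the 5 below an unadjusted p of 0.05 in edgeR. Over all tested genes 5.28% were higher and 7.08% lower in FLO-1LM at that unadjusted p, and since *MYL9* and *MYL12A* were chosen with values of this comparison known, nothing is read from the difference. *MYL12A* (ENSG00000101608), a regulatory light chain on chromosome 18 from 3247479 to 3256234, had 225 and 216 CPM in FLO-1LM and 192 and 196 CPM in parental cells. The lines did not overlap, and the difference was 0.18 ± 0.073 (standard error) on the log2 scale, with an adjusted p of 0.29 from edgeR. *MYL9* (ENSG00000101335), the regulatory light chain best known from smooth muscle, lies on chromosome 20 from 35169900 to 35179850. Its 234 and 228 CPM in FLO-1LM lay above the 199.6 and 226 CPM of parental cells, but 1 parental library came close to them. Its log2 fold change was 0.12 (95% interval from −0.04 to 0.28, adjusted p = 0.60 from edgeR).

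The values of the other 3 light chain genes lay above 0 as well. *MYL12B*, beside *MYL12A* on chromosome 18, had a log2 fold change of 0.21 (adjusted p = 0.19 from edgeR). For *MYL6*, the main essential light chain outside muscle, it was 0.22 (adjusted p = 0.14 from edgeR), and for *MYL6B* 0.25 (adjusted p = 0.27 from edgeR).

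The regulatory light chain genes are shown at the end of their coding sequence because *MYL12A* and *MYL12B* are close enough that short reads may not tell them apart. The 120 bases before the stop codon are from the canonical transcripts of the GRCh37 annotation, and capitals mark bases that differ from *MYL12A*.
MYL12A: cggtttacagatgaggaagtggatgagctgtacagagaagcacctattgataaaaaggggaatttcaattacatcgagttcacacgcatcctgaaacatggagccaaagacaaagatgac
MYL12B: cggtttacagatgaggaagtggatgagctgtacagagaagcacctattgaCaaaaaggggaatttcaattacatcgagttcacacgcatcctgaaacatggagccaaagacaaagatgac
MYL9: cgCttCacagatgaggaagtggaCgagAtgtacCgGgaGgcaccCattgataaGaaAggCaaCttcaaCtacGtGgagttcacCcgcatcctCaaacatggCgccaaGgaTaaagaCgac
In this stretch *MYL12B* differed from *MYL12A* at 1 base and *MYL9* at 21. Over the whole coding sequence, *MYL12B* was identical to *MYL12A* at 95.7% of aligned bases and *MYL9* at 79.3%. Of the runs of 50 bases in *MYL12B* transcripts, 4.39% also occurred in *MYL12A*, and none of those in *MYL9* did. How the authors treated reads with several matches is not stated, so the split between *MYL12A* and *MYL12B* is uncertain. Summed to 1 feature, they had a log2 fold change of 0.20 (adjusted p = 0.197 from edgeR).

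All 5 light chain genes thus had fold changes above 0, while *MYH9*, which made up most of the heavy chain level, and *MYH14* had values below it. Within a library, the 3 regulatory light chain genes had 30.2 and 30.2 counts for every 100 of the 3 heavy chain genes in FLO-1LM and 22.7 and 25.96 in parental cells. The 2 essential light chain genes had 17.5 and 18.6 against 13.3 and 14.9. Both ratios were higher in both FLO-1LM libraries, and the gap between the lines was wider than that within either line. These ratios and the other within-library ratios were picked with their values known and were not tested. Light chain transcripts are short and heavy chain transcripts long. Among protein-coding genes with a mean count of at least 200, the median log2 fold change was 0.030 over the 1098 genes with up to 600 coding bases and −0.0032 over the 469 genes with more than 5000. The essential light chain genes *MYL6* and *MYL6B*, with 714 and 651 coding bases, fall in the group between. Its 8053 genes had a median of 0.0093. The part of transcript length in the ratios was not tested.

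**Figure D3:**
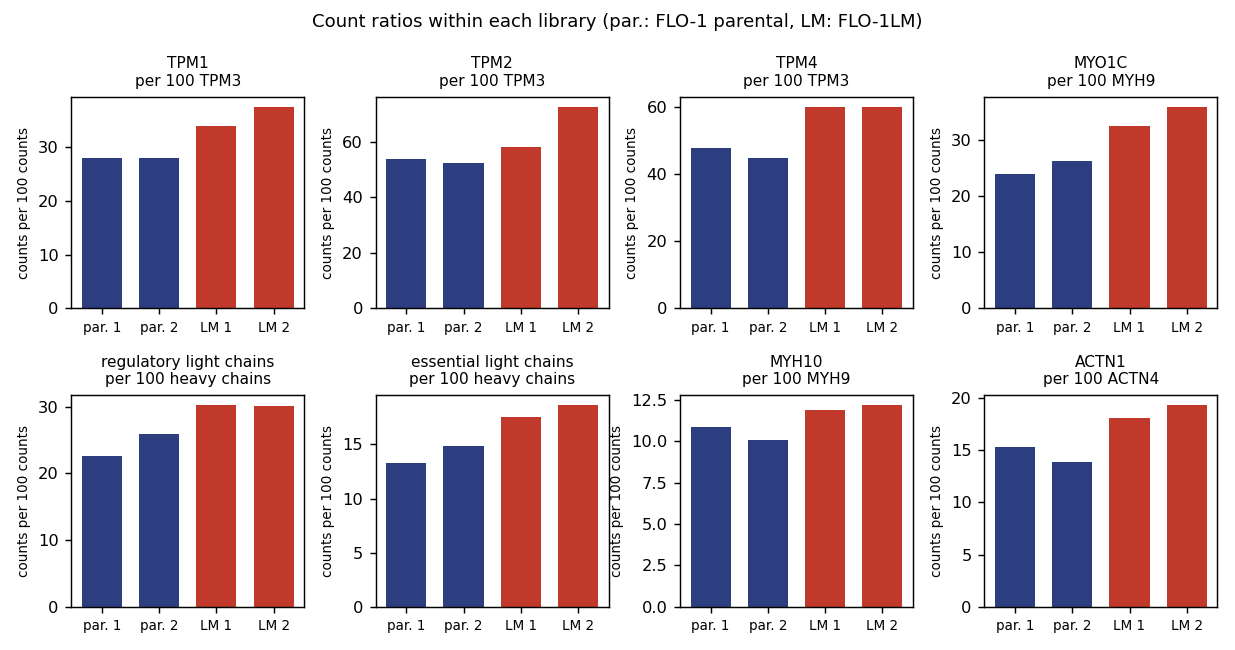
Counts of a gene or gene group for every 100 counts of another in the same library, for the 2 parental (blue) and 2 FLO-1LM (red) libraries, on axes that start at 0. In each of the 8 panels both FLO-1LM bars are taller than both parental bars, as for *TPM2* against *TPM3*, with 57.9 as the lower FLO-1LM value and 53.6 as the higher parental one. The pairs, and which gene of a pair is the divisor, were picked with the values known, so nothing is read from the shared direction.

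Of the 8 class I myosin genes, 5 were tested, *MYO1D*, *MYO1G* and *MYO1H* having too few counts, and only *MYO1C* passed the threshold. This gene (ENSG00000197879) encodes a motor that carries vesicles and links membrane to cortical actin, and it lies on chromosome 17 from 1367480 to 1395980. It had 749 and 791 CPM in FLO-1LM and 620.1 and 643 CPM in parental cells, and the lines were separated by more than the gap within either. On the log2 scale the difference was 0.29 ± 0.068 (standard error), with an adjusted p of 0.032 from edgeR. The authors had already reported *MYO1C* as significantly upregulated in FLO-1LM from their RNAseq data, so this call is not separate evidence. *MYO1E*, a long-tailed class I myosin named here after its values were seen, had 34.3 and 32.8 CPM in FLO-1LM and 43.6 and 37.9 CPM in parental cells. Its log2 fold change of −0.28 (adjusted p = 0.27 from edgeR) did not pass. *MYO1A* and *MYO1F* had at most 41 counts in any library.

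Per base of exon, *MYO1C* held 89.0% ± 0.04 of the class I myosin level in FLO-1LM and 86.9% ± 0.79 in parental cells (SD, n = 2 each). For every 100 counts of *MYH9* there were 32.4 and 35.9 of *MYO1C* in FLO-1LM and 23.8 and 26.2 in parental cells. The mean ratio was 1.36 times higher in FLO-1LM, with no overlap between the lines.

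*ACTN4* (ENSG00000130402), a nonmuscle alpha-actinin on chromosome 19 from 39138289 to 39222229, had 1669.7 and 1464 CPM in FLO-1LM and 1676 and 1773 CPM in parental cells. The lines did not overlap, but FLO-1LM replicate 1 came close to the lower parental library. The log2 fold change was −0.14 (standard error 0.071, 95% interval from −0.29 to 0.01, adjusted p = 0.46 from edgeR). Its value rested on FLO-1LM replicate 2, since without FLO-1LM replicate 1 it was −0.24 and without FLO-1LM replicate 2 it was −0.05. The other nonmuscle alpha-actinin gene, *ACTN1*, had a log2 fold change of 0.22 (adjusted p = 0.17 from edgeR). For every 100 counts of *ACTN4*, there were 18.1 and 19.3 of *ACTN1* in FLO-1LM and 15.3 and 13.9 in parental cells. *ACTN4* made up 92.2% ± 0.46 of the alpha-actinin level per base of exon in FLO-1LM and 93.7% ± 0.33 in parental cells. With canonical transcript lengths these shares were 79.6% ± 0.86 and 83.3% ± 0.89.

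**Figure D4:**
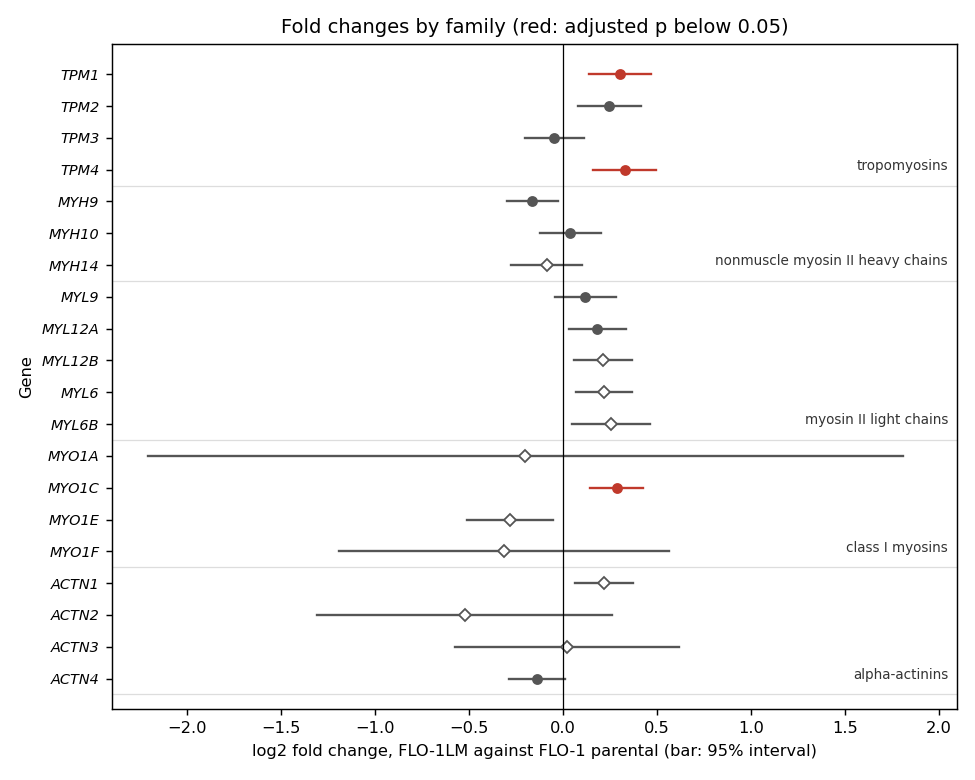
Log2 fold changes of FLO-1LM against parental cells with 95% intervals for genes of 5 families, circles for the 10 members and open diamonds for their relatives, red where the adjusted p was below 0.05. All 5 light chain genes lie right of 0, *MYH9* and *ACTN4* lie left of it, and the wide intervals of *MYO1A*, *MYO1F*, *ACTN2* and *ACTN3* belong to genes with at most 123 counts in a library.

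In edgeR all 3 calls depended on the scaling of the libraries. With library totals in place of TMM factors, edgeR gave *TPM4* a log2 fold change of 0.30 (adjusted p = 0.057), *MYO1C* 0.25 (adjusted p = 0.057) and *TPM1* 0.27 (adjusted p = 0.084), and 0 members passed, with 414 of all tested genes called, while 2 members passed in limma voom with library totals. Mitochondrial genes took 9.57% to 9.96% of the counts in FLO-1LM and 7.93% to 8.31% in parental cells. With these genes left out before TMM scaling, 3 members were called, as with TMM factors on all genes. Library totals without the mitochondrial genes were not tried, so their part in the loss of calls was not tested. Leaving out either parental library also gave 0 called members, while the fold changes of *TPM1*, *TPM4* and *MYO1C* stayed between 0.26 and 0.39. Without FLO-1LM replicate 1 the log2 fold changes were 0.33 for *TPM2*, −0.24 for *ACTN4* and 0.25 for *TPM4*. In fits without 1 library the spread comes from the intact pair, and calls over all genes moved widely. Calls of members in them are therefore not read as results about the members.

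Other genes of the actomyosin system were read from lists, and none outside the families above was called except on the list of SRF and MRTF targets. The actins had 0 of 3 tested genes called, with a median log2 fold change of −0.01. *ACTB* and *ACTG1*, the cytoplasmic actins, had values of 0.16 (adjusted p = 0.37 from edgeR) and −0.01 (adjusted p = 0.96 from edgeR). The 24 genes that set phosphorylation of the regulatory light chain, among them kinases and the subunits of myosin phosphatase, had 0 calls and a median of 0.0016, with 12 above and 12 below 0. *RHOA* and *PPP1CB*, the most abundant by CPM, had values of −0.08 and 0.08. Of 12 tested proteins that bind filament sides and ends, 0 were called, and *CFL1* and *TAGLN2* had log2 fold changes of 0.04 and 0.11.

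The actin crosslinkers had 0 of 9 called and a median of −0.02, with *SPTAN1* at −0.19 (adjusted p = 0.23 from edgeR) and *FLNA* at −0.05. Among other unconventional myosins 0 of 10 were called, with *MYO9B* at −0.12 and *MYO5A* at 0.02. The factors SRF, MRTFA and MRTFB had 0 of 3 called, with *SRF* at −0.02 and *MRTFB* at −0.19. Of the 61 tested genes on these 6 lists, 6 were above 0 and 3 below 0 at an unadjusted p under 0.05 in edgeR, where 5.28% and 7.08% of all tested genes were. DESeq2 and limma voom with TMM factors called none of them either.

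SRF and its coactivators of the MRTF family drive many genes of contractile actin. Of 23 such targets, 22 were tested, and 3 were called higher and 0 lower, where 0.402% and 1.83% of all tested genes were. Their median log2 fold change was 0.09 against 0.0016 over all tested genes. The called targets were *TPM1*, *TPM4* and *CYR61*, a matricellular gene now named CCN1, which had 121.6 and 137.5 CPM in FLO-1LM and 104.2 and 102 CPM in parental cells. For *CYR61* the difference was 0.33 ± 0.083 (standard error) on the log2 scale, with an adjusted p of 0.043 from edgeR. The list includes *MYL9*, *TPM2* and *MYH9*, which were not called, and 5 of its genes are among the 10 members, so its count is not separate evidence.

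Reads from copies of these genes were counted apart and were checked for the members. The 9 named pseudogenes of *TPM3* had 14.8% to 15.6% as many counts as the gene in the 4 libraries, mostly on *TPM3P5* and *TPM3P8*. Those of *TPM4* had 8.32% to 9.92%, those of *ACTN4* 1.46% to 1.84%, and that of *MYL12A* at most 0.213%. The lines overlapped in these shares for *TPM4* and *MYL12A* but not for *TPM3*, at 14.8% and 15.48% in FLO-1LM and 15.55% and 15.54% in parental cells, nor for *ACTN4*, at 1.73% and 1.84% in FLO-1LM and 1.65% and 1.46% in parental cells. With pseudogene counts added to their genes, *TPM3* had a log2 fold change of −0.05 and *TPM4* one of 0.32 (adjusted p = 0.033 from edgeR). Genes on the opposite strand overlap exons of *TPM1*, *MYH10*, *MYL12A* and *ACTN4*. The antisense gene *MYL12-AS1* had 33 and 51 counts in FLO-1LM and 101 and 73 in parental cells, which was at most 2.39% of the counts of *MYL12A*. *NDEL1*, which shares 72 exonic bases with *MYH10*, had 18.4% to 20.4% of its counts. The library kit keeps the strand, but whether the counting used it is not stated, so reads of such pairs may not be told apart.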

How the data were processed

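Gene expression was measured by RNAseq in 4 libraries, 2 from FLO-1LM and 2 from FLO-1 parental cells. The authors trimmed adapters with Trimmomatic 0.30, per the submitters' processing notes, mapped the reads to GRCh37 and deposited raw read counts per Ensembl gene. The library kit was directional. Which aligner and counter were used, and with what strand option, is not given in the sources used here. The members and gene lists were chosen with earlier results of these data known.

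Genes were filtered with filterByExpr of edgeR 4.0.16 (minimum count 10), which left 17143 of 63677, scaled by TMM and tested with glmQLFit and glmQLFTest in R 4.3.3. P-values were adjusted over all tested genes (Benjamini and Hochberg), and a gene was called at an adjusted p below 0.05. The standard error is the absolute log2 fold change over the square root of F. The common biological coefficient of variation was 0.090. The alternatives were DESeq2 1.42.0, limma voom (limma 3.58.1), other scalings and filters, pseudogene counts added, and each library left out. The code was tested on simulated data. Gene models are those of GENCODE mapped to GRCh37. Named genes were the members and, of each list, the called genes and the 2 with the highest mean CPM, and copies of members. Others are said to be named after their values were seen, apart from the relatives of the members, which are given for each family. Of the list symbols, 2 (*MYO19*, *PECAM1*) had no matching identifier. The labels give no batch or date, and a technical difference between the lines cannot be told apart from the lines. The values of 1 relative of the members are not reported here.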

Additional observations from a re-analysis of the deposited data

How the results depend on the processing

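The number of called members was 3 and became 0 with library totals only in edgeR, which also left 0 tropomyosins, 0 class I myosins and 0 SRF and MRTF targets called. It ranged from 0 to 4 when 1 library was left out, and the number of called genes over all ranged from 116 to 1052. In these fits the spread comes from the intact pair, and the lone library is assumed to vary like it. With all 4 libraries used, *TPM4* passed the threshold in 8 of 9 alternatives, *MYO1C* in 8 of 9 and *TPM1* in 5 of 9, and the other 7 members passed in none. Direction changed for 2 members, neither of them called, in 1 alternative each. With 1 library left out, the log2 fold change of *TPM3* ran from −0.12 to 0.028, the latter without FLO-1LM replicate 2. That of *MYH10* ran from −0.052, without FLO-1 parental replicate 2, to 0.14. The cause was not tested. The lengths used for family shares moved the shares and the order of the tropomyosins, and the length of the canonical transcript was chosen after seeing the data. No paired analysis was possible because the labels give no replicate number that links a library of one line to one of the other.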

Other observations

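*CALD1*, which encodes the filament-binding protein caldesmon, and *ROCK1*, a kinase that raises phosphorylation of the regulatory light chain, are named here after their values were seen. *CALD1* had 53 and 126 counts in FLO-1LM and 20 and 29 in parental cells, which gave 1.60 ± 0.42 (standard error) on the log2 scale and an adjusted p of 0.055 from edgeR. For *ROCK1* the log2 difference was 0.28 ± 0.078 (standard error), with an adjusted p of 0.080 from edgeR, and for its relative *ROCK2* it was 0.01 with an adjusted p of 0.98 from edgeR. None of the 3 passed the threshold.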
